A study of Homo sapiens with 6 samples.

Results

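The ATP-binding cassette (ABC) genes were taken as the protein-coding genes whose symbol is ABC, a letter from A to G and a number, with 3 further genes of that form not reported here and in none of the counts of ABC genes. There were 42 such genes of 19970 protein-coding genes on chromosomes 1 to 22 and X in the RefSeq table. A peak was placed at a gene when its summit lay inside the gene or within 20 kb of either end. Occupancy of the transcription factor NRF2 was mapped by chromatin immunoprecipitation and sequencing in HMC3, an established line of immortalised human microglia, with 2 libraries labelled vehicle and 2 from cells given the synthetic triterpenoid CDDO-Im at 30 nM for 4 h. All cells were grown in the same medium and fixed with formaldehyde before precipitation with an anti-NRF2 antibody, and the treatment text does not differ between samples, so the groups rest on the sample titles. The 2 input samples were not analysed here. Peak lists hold no expression values, so the cell type was not checked against microglial markers. Nothing in the labels says that the libraries of a group came from separate cultures, so p-values measure only the spread between these libraries, which may be technical.

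ABC proteins bind and hydrolyse ATP, and most use it to move a substrate across a membrane. The A and G subfamilies hold many lipid and sterol transporters, the B subfamily holds multidrug, bile, peptide and mitochondrial transporters, and the C subfamily holds the multidrug resistance proteins, which export drugs and conjugates with glutathione or glucuronic acid, as well as regulators of potassium channels. The D subfamily imports fatty acids into peroxisomes or handles cobalamin, and the E and F subfamilies act on ribosomes and move no substrate. NRF2 is bound by KEAP1 and degraded in resting cells, and electrophiles such as CDDO-Im release it to bind antioxidant response elements with small MAF partners. Several drug exporters of the C and G subfamilies are textbook targets of NRF2 in liver and tumour cells.

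NRF2 peaks lay at 18 of the 42 ABC genes, and 9 of them (ABCA5, ABCA9, ABCB4, ABCB9, ABCB11, ABCC3, ABCC5, ABCF2 and ABCG2) had a region that both CDDO-Im libraries listed, called a shared CDDO-Im region here. Only ABCA5 had a shared vehicle region, listed by both vehicle libraries. The 9 genes were 21.4% of the ABC genes, against 7.3% of all protein-coding genes by the same rule. The 18 genes with a peak in any library were 42.9%, against 20.5% of all protein-coding genes. The gene with a shared vehicle region was 2.38% of the ABC genes, against 1.07% of all. At 5 genes (11.9%) a shared CDDO-Im region was in neither vehicle list, against 4.85% of all protein-coding genes. Genes with a shared CDDO-Im region that at least 1 vehicle library also listed were 5 as well (11.9%), against 2.75% of all. The share for CDDO-Im stood above that of all genes, and the share for vehicle rested on 1 gene. Taken alone, CDDO-Im 2 had a peak at 14 ABC genes (33.3%, against 14.8% of all) and CDDO-Im 1 at 12 (28.6%, against 10.4%). Vehicle 2 had one at 6 (14.3%, against 4.54%) and vehicle 1 at 2 (4.76%, against 4.16%).

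ABC genes are long, with a median of 82.8 kb against 24.2 kb for all protein-coding genes, so a window holds more sequence in which a peak can lie. Among genes of at least 50 kb, a limit chosen after seeing the data, 8 of 29 ABC genes (27.6%) and 14.3% of all such genes had a shared CDDO-Im region. With summits inside the gene only, the shares were 19.0% and 4.46%, with a window of 10 kb 19.0% and 5.78%, and with one of 50 kb 28.6% and 11.6%. The ABC share was the higher one in each of these settings, and the gap was smaller in proportion among long genes. For a shared CDDO-Im region in neither vehicle list, the shares among genes of at least 50 kb were close, at 13.8% (4 of 29) and 10.2%. Per megabase of joined windows, ABC genes held 0.366 and 1.10 peaks in vehicle 1 and 2 and 2.2 and 3.11 in CDDO-Im 1 and 2. All protein-coding genes, with megabases holding more than 20 joined regions left out, held 0.430 and 0.459, then 1.16 and 1.74 in the same order. Vehicle 1 was thus the library in which ABC windows were not denser than those of other genes.

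**Figure D1:**
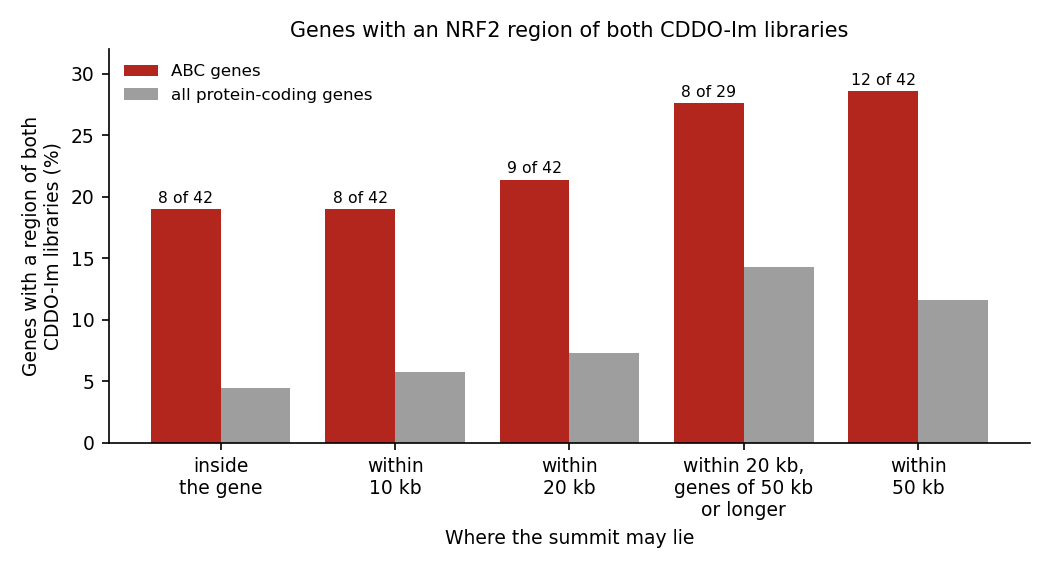
Share of genes with a shared CDDO-Im region (y axis, percent) by where the summit may lie (x axis), for the ABC genes (red, with the number of genes) and all protein-coding genes (grey). The red bar is the higher one in each setting, from 19.0% inside the gene to 28.6% within 50 kb.

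By subfamily, the 12 ABCA genes had 6 with a peak and 2 with a shared CDDO-Im region. The 7 ABCB genes had 3 and 3, the 11 ABCC genes 6 and 2, the 3 ABCF genes 1 and 1, and the 5 ABCG genes 2 and 1. No library listed a peak at the 3 ABCD genes or at ABCE1, which takes part in ribosome recycling. The genes without a peak were ABCA2, ABCA7, ABCA8, ABCA10, ABCA12 and ABCA13 of the A subfamily, ABCB1, ABCB5, ABCB8 and ABCB10 of the B subfamily, ABCC4, ABCC8, ABCC10, ABCC11 and ABCC12 of the C subfamily, ABCD2, ABCD3 and ABCD4, ABCE1, ABCF1 and ABCF3, and ABCG4, ABCG5 and ABCG8. They include ABCB1, the multidrug pump P-glycoprotein, and ABCG5 with ABCG8, the pair that exports plant sterols and cholesterol. At the lowest background of a library, peaks were listed from 4 tags upward in each of the 4 libraries. Local background was higher at some ABC peaks, such as 1.52 tags at ABCA5 in CDDO-Im 2, so this floor does not hold at each gene. A gene without a peak had none that reached a list at this depth, which does not show that NRF2 was absent.

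**Figure D2:**
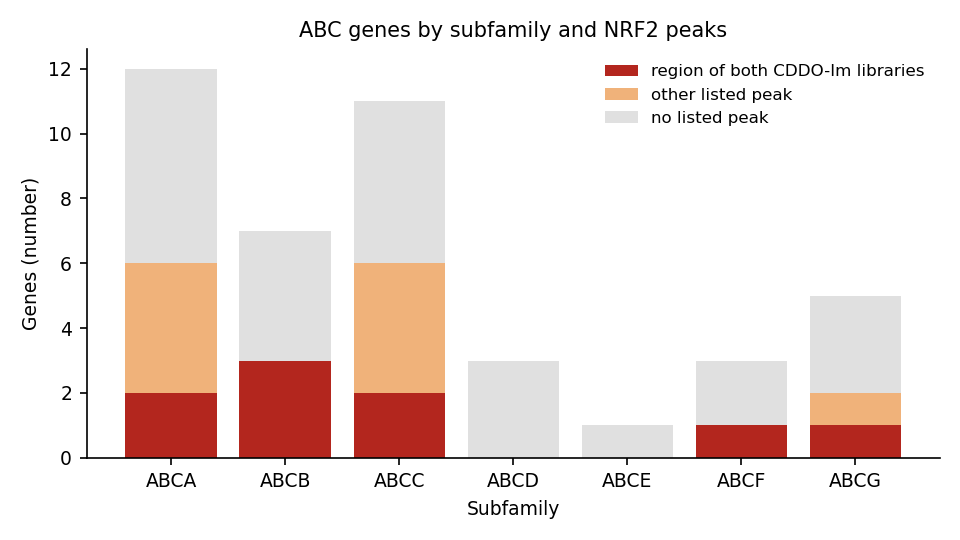
Number of ABC genes (y axis) in each subfamily (x axis) with a shared CDDO-Im region (red), with another listed peak only (orange) or with no listed peak (grey). The B subfamily has 3 genes in red, the A and C subfamilies 2 each, and the D and E subfamilies have grey genes only.

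CDDO-Im libraries listed more peaks at ABC genes than vehicle libraries. The numbers were 2 in vehicle 1, 6 in vehicle 2, 12 in CDDO-Im 1 and 17 in CDDO-Im 2, a difference of 2.04 on the log2 scale, or 4.12-fold between the group means of log2 numbers. The groups did not overlap, with an exact two-sided permutation p of 0.33 (n = 2 and 2), the smallest that this design allows. At all protein-coding genes the libraries listed 697, 746, 1879 and 2822 peaks, a difference of 1.68 (3.19-fold; exact permutation p = 0.33). The ABC numbers are small and depend on both vehicle libraries: without vehicle 1 the difference was 1.25 and without vehicle 2 it was 2.84. None of the ABC peaks lay in a megabase with more than 20 joined regions. Few peaks at protein-coding genes did: with such megabases left out, 696, 744, 1875 and 2818 remained in the same order of libraries. Joined over libraries, the 37 peaks made 20 regions, of which 10 (50%) were shared CDDO-Im regions, against 29.0% of the 4274 regions at protein-coding genes. A further 9 (45.0%) were listed in 1 library only, against 69.9%.

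Of the 10 shared CDDO-Im regions, 5 (at ABCA5, ABCA9, ABCB9, ABCC3 and ABCF2) were in neither vehicle list, which is 25% of the ABC regions against 19.0% of all regions at protein-coding genes. Regions at ABCB4, ABCB11, ABCC5 and ABCG2 were also listed in vehicle 2 but not in vehicle 1. At ABCA5, 1 region was in all 4 lists (5.0%, against 3.58%). Together these 5 regions were also 25% of the ABC regions, against 10% of all regions at protein-coding genes. The ABC share thus stood further above that of all regions here than for regions in neither vehicle list. No shared vehicle region of an ABC gene was missing from the CDDO-Im lists, and 0.0936% of all regions at protein-coding genes were of that kind. Which vehicle library is kept sets this split: without vehicle 2, 9 of the shared CDDO-Im regions were missing from the vehicle list that remained, and without CDDO-Im 1, CDDO-Im 2 alone held 11 that neither vehicle library listed. Without vehicle 1, regions in all remaining lists numbered 5.

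Tags are the fragments stacked at the summit, recovered from the deposited fold enrichment and p-value, and they are given here as counts and over the genome-wide background of the library. Over the 10 shared CDDO-Im regions, CDDO-Im 1 held a median of 13.5 tags (from 9 to 27) and CDDO-Im 2 a median of 23 (from 8 to 51). In all regions of this kind at protein-coding genes the medians were 14 and 20. The ABC regions were therefore of usual strength and none came near the strongest, which held 124 and 188 tags. The summits of the 2 CDDO-Im libraries lay 4 to 46 bp apart, with a median of 17 bp, against 18 bp for all such regions. Over background, CDDO-Im 2 was higher than CDDO-Im 1 in 9 of the 10 regions, the exception being ABCB9, and in 77.5% of all such regions. The median ratio between these libraries was 1.36 at ABC genes and 1.33 at all genes. The well-known NRF2 site at GCLM, a subunit of the glutathione-synthesis enzyme, held 11 tags in vehicle 2 and 20 and 28 in the CDDO-Im libraries, in the range of the stronger ABC regions. The site at NQO1, a quinone reductase, held 12 and 20 tags under vehicle and 68 and 97 under CDDO-Im. The stronger of 2 regions at HMOX1, the haem-degrading enzyme, held 36 and 46, then 114 and 188, and the weaker 22 and 22, then 53 and 109. In each library the NQO1 and HMOX1 regions held more tags than any ABC region.

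**Figure D3:**
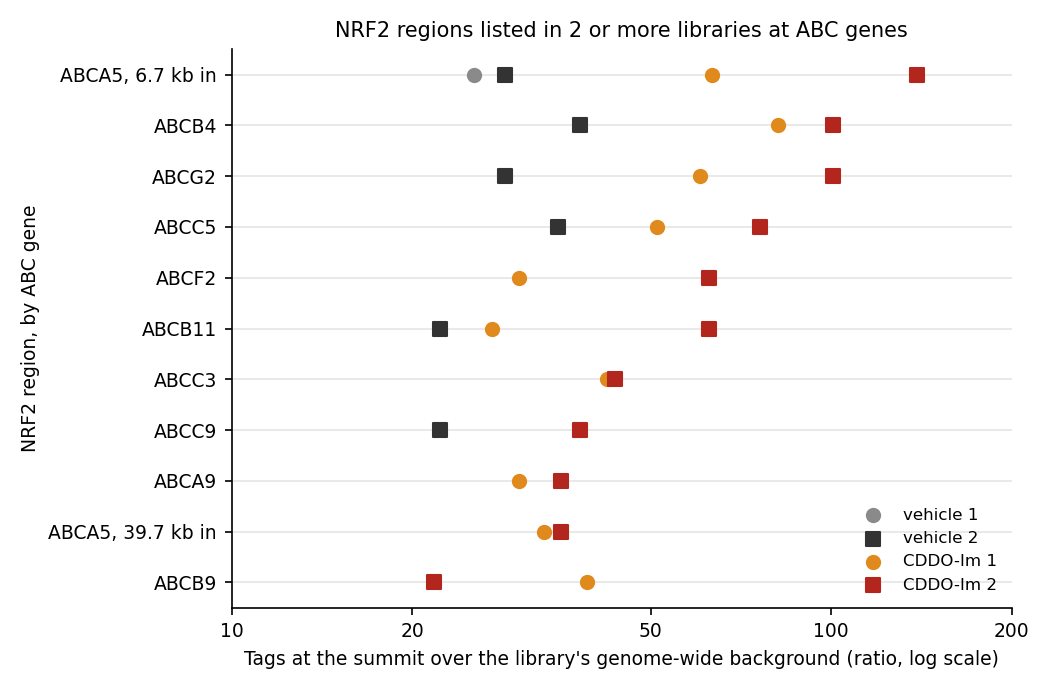
Tags at the summit over the genome-wide background of the library (x axis, log scale) for the 11 ABC regions listed in 2 or more libraries (y axis, by gene; the 2 ABCA5 regions by their distance from the nearer gene end). Circles are replicate 1 and squares replicate 2, with vehicle in grey and black and CDDO-Im in orange and red, and a library with no symbol did not list the region. Where a vehicle symbol is present it lies to the left of each CDDO-Im symbol of that region, and only ABCA5 has both vehicle libraries.

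Among the A subfamily, ABCA5, a lipid transporter of late endosomes and lysosomes, had the only ABC region of all 4 libraries (chromosome 17, 69320219 to 69320660 on hg38). Its summits lay inside the gene, 6703 to 6764 bp downstream of the start in the RefSeq table. The region held 8 tags in vehicle 1, 9 in vehicle 2, 21 in CDDO-Im 1 and 51 in CDDO-Im 2. Vehicle and CDDO-Im did not overlap, CDDO-Im being the higher, and CDDO-Im 2 stood well above CDDO-Im 1. Over background the values were 25.4 and 28.6 for vehicle and 63.3 and 138.8 for CDDO-Im, a ratio of 3.48 (log2 1.80; exact two-sided permutation p = 0.33, n = 2 and 2, the smallest possible). Exact 95% Poisson intervals, which cover counting error only, ran from 3.45 to 15.8 tags in vehicle 1, from 4.12 to 17.1 in vehicle 2, from 13.0 to 32.1 in CDDO-Im 1 and from 38.0 to 67.1 in CDDO-Im 2. The interval of CDDO-Im 1 thus overlapped those of the vehicle libraries and that of CDDO-Im 2 did not. Without CDDO-Im 2 the ratio was 2.35 and without CDDO-Im 1 it was 5.15. The local background of these peaks was 0.579, 1.14, 0.600 and 1.52 tags in the same order, and with tags divided by it the ratio was 3.27. The values were then 13.8 and 7.90 for vehicle and 35.0 and 33.5 for CDDO-Im. The groups still did not overlap, but CDDO-Im 2 no longer stood above CDDO-Im 1.

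Another ABCA5 region (chromosome 17, 69287301 to 69287530) lay inside the gene, 39720 bp downstream of the start in CDDO-Im 2. CDDO-Im 1 gave it 11 tags and CDDO-Im 2 gave it 13, and neither vehicle library listed it. ABCA9, a neighbour of ABCA5 in the cluster of A-subfamily genes on chromosome 17, was marked within its body (69042419 to 69042697), where CDDO-Im 1 stacked 10 tags, CDDO-Im 2 stacked 13 and neither vehicle library listed a peak. Another ABCA9 peak (69078185 to 69078361), 459 bp outside ABCA6 and so counted at both genes, was listed in CDDO-Im 2 alone with 6 tags. Its summit lay inside ABCA9, 734 bp from the upstream end of that gene. The other cluster members, ABCA8 and ABCA10, had no peak, so the listed peaks of the cluster lay in ABCA5 and ABCA9.

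ABCA1, the exporter that loads cholesterol and phospholipid onto apolipoprotein A-I, had peaks in CDDO-Im 2 alone. The stronger lay 16357 bp upstream of its start (chromosome 9, 104944400 to 104944659) with 16 tags, and the weaker inside the gene with 5 tags. At 16 tags it was the strongest ABC peak that 1 library alone listed, with a −log10 q of 17.9 in the deposited list. ABCA3, which moves lipids into lung surfactant granules, had 1 peak inside the gene with 6 tags in CDDO-Im 1 alone. ABCA4, the retinoid transporter of photoreceptors, had 1 peak of 5 tags in vehicle 1 alone, and it was the only ABC gene whose peaks were all from vehicle.

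**Figure D4:**
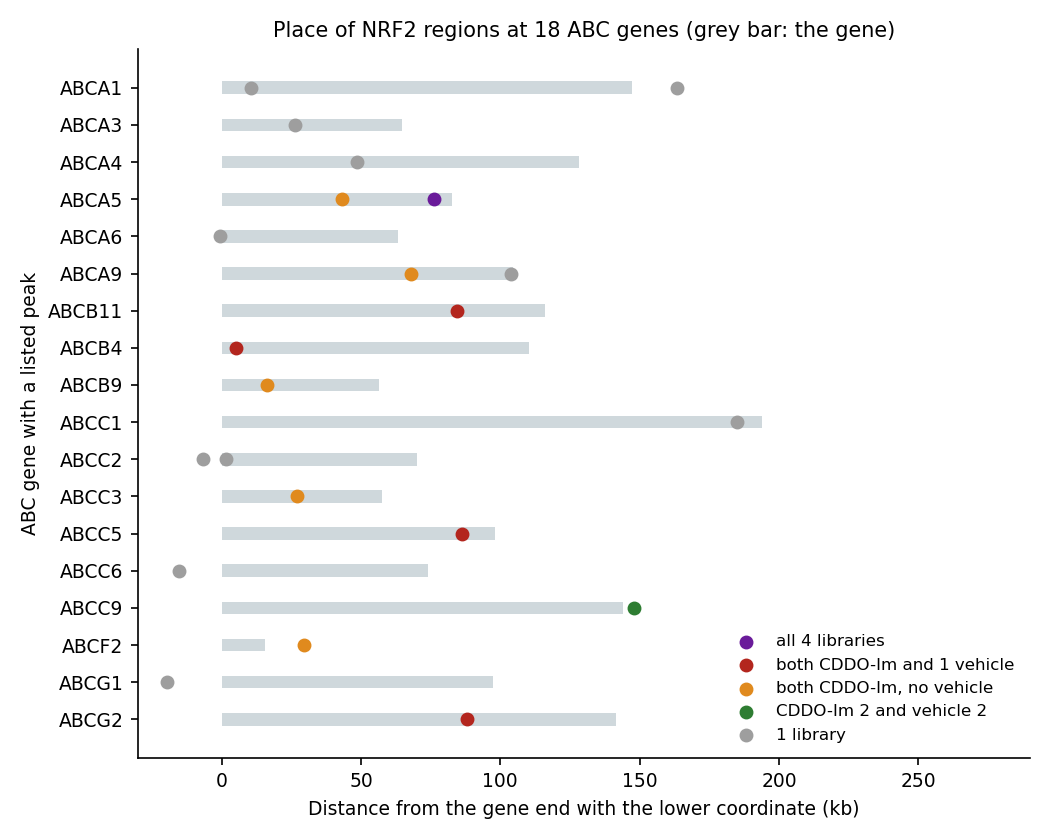
Place of each NRF2 region (points, coloured by the libraries that listed it) along the 18 ABC genes with a peak (y axis), as distance in kb from the gene end with the lower coordinate (x axis); grey bars are the genes. Of the 20 regions, 15 lie inside an ABC gene, and 9 of the 10 shared CDDO-Im regions do, the ABCF2 region being outside. These counts have no share over all regions at protein-coding genes beside them, so they are not shown to be particular to ABC genes.

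In the B subfamily, ABCB4, which flips phosphatidylcholine into bile, had the strongest ABC region in CDDO-Im 1 (chromosome 7, 87370697 to 87371088). It held 12 tags in vehicle 2, 27 in CDDO-Im 1 and 37 in CDDO-Im 2, and vehicle 1 did not list it. Both CDDO-Im libraries were above the listed vehicle library, at 81.4 and 101 against 38.1 over the genome-wide background, a ratio of 2.37. By −log10 q it ranked 379th of the 3882 peaks of CDDO-Im 1 and 284th of the 12244 of CDDO-Im 2. The local background was 0.767 in CDDO-Im 1 against 0.367 in CDDO-Im 2 and 0.315 in vehicle 2, and over it CDDO-Im 1 stood at 35.2 and vehicle 2 at 38.1, so the order of these libraries turned. The ratio over local background was 1.56. The summits lay 4947 to 5041 bp inside the gene and also inside CROT, a peroxisomal carnitine acyltransferase gene that overlaps ABCB4, so the region is not tied to 1 of these genes.

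ABCB11, the bile salt export pump, was marked within its body, 31455 to 31538 bp downstream of its start (chromosome 2, 168999658 to 168999971). It held 7 tags in vehicle 2, 9 in CDDO-Im 1 and 23 in CDDO-Im 2. Here CDDO-Im 1 was close to vehicle 2, at 27.1 against 22.3 over genome-wide background, while CDDO-Im 2 reached 62.6. The ratio was 1.85, and without CDDO-Im 2 it was 1.22. Over local background CDDO-Im 1 fell below vehicle 2, at 20.7 against 22.3. ABCB9, a lysosomal peptide transporter, held 13 tags in CDDO-Im 1, 8 in CDDO-Im 2 and no vehicle peak at a site within its body (chromosome 12, 122934892 to 122935227).

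In the C subfamily, ABCC5, an exporter of cyclic nucleotides and other organic anions, was marked within its body, 11508 to 11528 bp downstream of its start (chromosome 3, 184006189 to 184006546). It held 11 tags in vehicle 2, 17 in CDDO-Im 1 and 28 in CDDO-Im 2, and vehicle 1 did not list it. The vehicle 2 value is the better of 2 whole-tag solutions, the only ABC peak with more than 1. Over background the values were 35.0 against 51.3 and 76.2, with both CDDO-Im libraries higher and a ratio of 1.79. ABCC3, which exports glucuronide and glutathione conjugates, was marked within its body, 27061 and 27088 bp from its nearer end (chromosome 17, 50661778 to 50662115). CDDO-Im 1 gave 14 tags and CDDO-Im 2 gave 16, the closest pair of CDDO-Im values over background (42.2 and 43.5), and neither vehicle library listed it.

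The remaining C-subfamily genes with a peak had no shared CDDO-Im region. ABCC9, the SUR2 subunit of ATP-sensitive potassium channels, had a region 3769 bp upstream of its start (chromosome 12, 21945037 to 21945353) in vehicle 2 with 7 tags and in CDDO-Im 2 with 14 tags. ABCC2, an exporter of conjugates into bile, had 2 peaks of 8 tags each in CDDO-Im 2 alone, 1 of them 1617 bp downstream of its start (chromosome 10, 99784141 to 99784317). By the starts listed in the RefSeq table, that summit was the nearest among the 16 ABC regions whose gene has such a start. It was the only one within 2 kb, a count with no share over all genes beside it. The listed starts do not cover each gene end. The weaker ABCA9 peak of CDDO-Im 2 lay 734 bp from the upstream end of ABCA9, where no start is listed. ABCC1, which exports glutathione conjugates, had 1 peak of 6 tags in CDDO-Im 1 alone, inside the gene and 15438 bp from ABCC6, and so counted at both genes.

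ABCG2, the breast cancer resistance protein, exports drugs, urate and porphyrins, and its region lay inside the gene (chromosome 4, 88178305 to 88178665). It held 9 tags in vehicle 2, 20 in CDDO-Im 1 and 37 in CDDO-Im 2, and vehicle 1 did not list it. Both CDDO-Im libraries stood above vehicle 2, at 60.3 and 101 against 28.6 over background, a ratio of 2.72, and over local background the ratio was 2.98. Without CDDO-Im 2 the ratio over genome-wide background was 2.11. The exact 95% Poisson intervals were 4.12 to 17.1 tags in vehicle 2, 12.2 to 30.9 in CDDO-Im 1 and 26.1 to 51.0 in CDDO-Im 2, so that of CDDO-Im 1 overlapped vehicle 2. The RefSeq table gives ABCG2 5 promoter windows: 1 at the far end of the gene, 53144 to 53162 bp upstream of the summits, and 4 close together, the nearest with its start 19174 to 19192 bp downstream of them.

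ABCG1, which passes cholesterol to lipoproteins, had 1 peak of 5 tags in CDDO-Im 2 alone, 19634 bp outside the gene and the farthest out that the window took in. The next peak beyond the window lay 26654 bp outside ABCD3, a peroxisomal importer, with 16 tags in CDDO-Im 2. ABCF2, an ATPase with no membrane domain, had its shared CDDO-Im region 13976 and 13980 bp upstream of its start (chromosome 7, 151240989 to 151241338). CDDO-Im 1 stacked 10 tags there and CDDO-Im 2 stacked 23. That summit lies inside SMARCD3, a chromatin remodelling subunit gene, and within 20 kb of CHPF2, so it is not tied to ABCF2.

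Across the 5 ABC regions that both CDDO-Im libraries and at least 1 vehicle library listed, tags over genome-wide background were higher in both CDDO-Im libraries than in each listed vehicle library in 5, as in 93.7% of the 429 such regions at protein-coding genes. The median ratio was 2.37 (quartiles 1.85 and 2.72), against 2.71 (1.98 and 3.50) at protein-coding genes. In 4 of the 5 only vehicle 2 listed the region, and a region that a vehicle library lists weakly can go unlisted there, so these ratios leave out vehicle 1. With tags over local background, 3 of the 5 had both CDDO-Im libraries higher, against 88.1% of the 429, and the median ratio was 1.64. Without vehicle 2 only the ABCA5 region remained, with a ratio of 3.70. The direction at ABCB4 and ABCB11 in CDDO-Im 1 thus turned with the measure of background.

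None of the listed peaks overlapped any of the 52 promoter windows of the 34 ABC genes found in the RefSeq table (GRCh38.p14), which run from 250 bases before a start to 50 bases after it. Shared CDDO-Im regions whose gene has a start there lay 6703 to 39720 bp from the nearest one. The overlaps and distances have no share over all protein-coding genes beside them, so they are not shown to be particular to ABC genes. The core of the antioxidant response element, TGACNNNGC on either strand, was in 21.2% of the 52 ABC windows, against 13.8% of 22155 windows of protein-coding genes. A longer form, the core followed by A, was in 7.69% against 2.94%, and the AP-1 core TGANTCA, whose letters can overlap an antioxidant response element, in 11.5% against 6.16%. A match is a description of letters and not a bound site. Of the 9 genes with a shared CDDO-Im region, 7 had a window to search (ABCB4 and ABCC3 had none). A core match was in 3 of these 7 (ABCA5, ABCB9 and ABCG2) and in 11 of all 34 ABC genes with a window. Of the 11 ABC genes with a core match, 7 had no peak in any library (ABCA2, ABCC4, ABCC10, ABCC11, ABCD4, ABCF1 and ABCG4). Among all 42 ABC genes, 18 had a peak, but these include genes with no window to search, such as ABCB4 and ABCC3. The counts are therefore not on the same base, and a link between match and peak was not tested. Of the genes with a shared CDDO-Im region and a match, ABCG2 and ABCA5 held the most tags. ABCG2 encodes a drug exporter, and ABCA5 has the region of all 4 lists. Their windows with a match are shown 5′ to 3′ on the minus strand, with matches in capitals.
ABCG2, chr4:88159241-88159540: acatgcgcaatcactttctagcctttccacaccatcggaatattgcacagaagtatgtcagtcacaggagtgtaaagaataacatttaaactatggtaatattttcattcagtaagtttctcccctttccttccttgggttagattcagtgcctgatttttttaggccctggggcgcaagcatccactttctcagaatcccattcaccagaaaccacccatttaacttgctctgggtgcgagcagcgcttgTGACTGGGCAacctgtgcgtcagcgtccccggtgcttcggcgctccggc
ABCA5, chr17:69327084-69327383: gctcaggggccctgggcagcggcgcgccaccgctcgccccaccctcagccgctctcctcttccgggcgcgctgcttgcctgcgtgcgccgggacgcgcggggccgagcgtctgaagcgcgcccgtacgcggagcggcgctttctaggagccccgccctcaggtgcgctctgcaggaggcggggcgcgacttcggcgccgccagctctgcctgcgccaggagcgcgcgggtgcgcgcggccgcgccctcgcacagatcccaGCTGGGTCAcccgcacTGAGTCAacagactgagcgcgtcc

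Within the ABCG2 window the capitals are the longer form, and in the ABCA5 window they are the core on the opposite strand followed by the AP-1 core. The ABCA3 window, of a gene with a CDDO-Im 1 peak only, also held the longer form, and ABCB9 held the core. Both are given with their flanks. The ABCA3 match reads in the direction of the gene, and that of ABCB9 is on the opposite strand, so its capitals are the reverse complement of the core.
ABCA3, chr16:2340904-2340937, minus strand: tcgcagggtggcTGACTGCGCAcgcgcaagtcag
ABCB9, chr12:122974626-122974658, minus strand: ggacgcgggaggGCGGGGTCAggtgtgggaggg

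Other transport and lipid genes were counted by the same rule. Among 23 carriers of drugs, organic ions and bile acids outside the ABC genes, 3 had a shared CDDO-Im region and none a shared vehicle region. They were SLCO2A1, a prostaglandin carrier, at 10 and 9 tags (CDDO-Im 1 and 2), SLC22A7 with 17 and 17, and SLC22A3, an organic cation carrier, with 7 and 16. Among 16 cholesterol efflux genes the 2 were RXRA, a nuclear receptor partner, with 9 and 14 tags, and SCARB1, the receptor for high-density lipoprotein. The SCARB1 region was in all 4 lists, with 13 and 12 tags in the vehicle libraries and 46 and 56 in the CDDO-Im libraries, more in CDDO-Im than any ABC region. Among 13 genes of peroxisomal import and fatty acid oxidation the 2 were ACOX3 with 12 and 16 tags and CROT, whose region is the one at ABCB4. Of 7 genes of drug sensing and multidrug regulation none had a shared CDDO-Im region, and of 3 ABC-type genes outside the symbol rule (CFTR, TAP1 and TAP2) none had, though CFTR had 1 peak of 6 tags in CDDO-Im 1 and another of 14 tags in CDDO-Im 2, in separate regions, and TAP2 had 1 of 6 tags in CDDO-Im 2. The shares of these 5 lists ran from 0% to 15.4%, against 7.3% of all protein-coding genes, and rest on few genes.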

How the data were processed

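The submitters' processing notes name MACS2 2.2.7.1 for peaks, BWA 0.7.17 and bcl2fastq 2.15.0, and the builds hg38 and GRCm38. The control, the threshold and the handling of duplicates were not given in the sources used here. Each peak name carries a single library, so calling was done library by library. The lists name human chromosomes, and coordinates are given on hg38. The deposited lists give per peak a fold enrichment (ratio), a −log10 p and a −log10 q, and a whole-number score, the −log10 q multiplied by 10 and truncated. These are the authors' values and were used only within a list.

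Tags at the summit were recovered from the deposited fold, taken as tags plus 1 over background plus 1, and the −log10 p, taken as the Poisson tail above the tags (tolerance 0.001 plus 0.0002 of the value). Whole tags matched for 100% of peaks, and between 97.7% and 99.4% had a single match. The lowest background of a library, 0.316 and 0.315 tags for vehicle 1 and 2 and 0.332 and 0.367 for CDDO-Im 1 and 2, served as its genome-wide background and measure of depth, the lists holding no library totals. On chromosomes 1 to 22 and X the lists held 4098, 7308, 3882 and 12244 peaks, with medians of 7, 8, 9 and 9 tags, and 70.3%, 82.5%, 16.3% and 60.8% of them lay in megabases of more than 20 joined regions. Peaks overlapping by at least 1 bp were joined into regions, and a library held a region at a gene when the summit of its peak lay in the gene's window.

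Library values were tested by exact two-sided permutation, and gene and region counts were set beside the same counts over all protein-coding genes of RefSeq on GRCh38.p14. That table gives no exons or introns, so a region is described only as inside or outside a gene. Genes with a promoter window were 34 of 42, and those windows gave strand and start. Intervals of tags cover counting error only. The recovery of tags, the joining of regions and the gene counts were tested on simulated data. The members and lists were chosen with earlier results of these data known. Each gene with a peak is named, those with a shared region of either group in full, then the 6 others with the highest −log10 q. Alternatives were the peak threshold, window, overlap, list length, depth measure and each library left out. No genome sequence was used, so peak sequences were not searched. Python 3.11.15, pandas 2.3.3 and SciPy 1.17.1 were used.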

Additional observations from a re-analysis of the deposited data

How the results depend on the processing

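The number of peaks at ABC genes stayed higher with CDDO-Im under each alternative that gave a value. It gave none with peaks under a −log10 q of 5 or of 10 left out, because a vehicle library then listed no ABC peak. Leaving out a library gave a log2 difference between 1.25 and 2.84. Equal replicate numbers are not said to share a culture or day, and over 230 regions of all 4 libraries their deviations correlated at -0.043. With a replicate block (paired by number) the difference was 2.04 with an exact sign-flip p of 0.5, the smallest for 2 pairs. The median tag ratio was then 2.81. At the 4 regions that vehicle 1 did not list, only CDDO-Im 2 over vehicle 2 entered it. That ratio is thus not paired over both replicates and leaves out CDDO-Im 1 there.

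ABC genes with a shared CDDO-Im region were 5 with peaks under a −log10 q of 10 left out, and between 9 and 14 with a library left out. Where a library was left out, a shared region of its group was any region that the remaining library of that group listed. Regions of all 4 libraries were then those in all remaining lists. Genes with a shared vehicle region, and regions of all 4 libraries, were 0 at a minimum −log10 q of 5, at a minimum of 10 and at equal list length (3882 peaks each). With a library left out these were between 1 and 6 genes and between 1 and 5 regions. Shared CDDO-Im regions in neither vehicle list were 3 at equal list length and between 5 and 11 with a library left out, and shared vehicle regions in neither CDDO-Im list between 0 and 1. The median tag ratio was 1.64 over local background (chosen after seeing the data) and between 2.11 and 3.70 with a library left out. Other windows, an overlap of at least 0.5 of the shorter peak, other depth measures and leaving out megabases with many regions moved none of these results by more than 1.5 times or, for the tag ratio, the spread between the CDDO-Im libraries. Few tags per peak and 2 libraries a group limit each of these counts.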
